A study of Mus musculus with 13 samples.

Results

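Nucleotide excision repair is the pathway that cuts bulky adducts out of DNA, and 30 of its genes are described here out of 20054 genes in the count table. They were chosen by name from the pathway's known factors, with no expression value in the rule but with earlier results of these data known. All 30 were found by symbol and all 30 passed the filter on low counts. The tissue was whole esophagus of mice, measured by RNA sequencing in 7 libraries of dblGATA mice and 6 libraries of wild-type (WT) mice. Every animal was first given 4-nitroquinoline 1-oxide (4-NQO), a water-soluble carcinogen, over 8 weeks, followed by propylene glycol, its vehicle, over another 8 weeks. The labels call that stage pre-cancer.

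The dblGATA mice carry a germline deletion of a palindromic GATA site in the promoter of Gata1, an X-linked transcription factor of blood cells, and are used as mice that lack eosinophils. The WT animals are given as C57/BL6. Whether the dblGATA animals were littermates of the WT animals is not given in the sources used here, and neither group includes animals without 4-NQO. The comparison therefore sets dblGATA against WT within carcinogen-treated tissue.

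4-NQO is reduced in cells to a metabolite that binds purines, and the resulting bulky adducts are substrates of nucleotide excision repair. In global genome repair, XPC with RAD23B and centrin 2, helped by the DDB1 and DDB2 ubiquitin ligase, finds the damage; in transcription-coupled repair a stalled RNA polymerase II recruits CSB and CSA instead. Both routes hand over to TFIIH, which opens the helix, to XPA, which checks the damage, and to the nucleases XPG and XPF with ERCC1, after which polymerases and ligases fill and seal the gap.

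RefSeq promoters of the build GRCm38.p6 were available for 27 of the 30 genes. The windows reach from 250 bases before the start of the gene to 50 bases after it. Those below belong to 4 of the 5 genes that passed the test between dblGATA and WT, and are shown so that the upstream sequence can be read beside each change. Rad23b lies at chr4:55349792-55350091, Ercc4 at chr16:13109486-13109785, Lig3 at chr11:82780859-82781158 and Rbx1 at chr15:81466066-81466365, each on the plus strand. Capitals mark matches to short motifs, searched on both strands. The GC box was searched as GGGCGG. The CCAAT box was searched by the 5 letters of its name. A core of ETS factor sites was searched as CCGGAA. A core of E2F sites was searched as TTCCCGC.
Rad23b: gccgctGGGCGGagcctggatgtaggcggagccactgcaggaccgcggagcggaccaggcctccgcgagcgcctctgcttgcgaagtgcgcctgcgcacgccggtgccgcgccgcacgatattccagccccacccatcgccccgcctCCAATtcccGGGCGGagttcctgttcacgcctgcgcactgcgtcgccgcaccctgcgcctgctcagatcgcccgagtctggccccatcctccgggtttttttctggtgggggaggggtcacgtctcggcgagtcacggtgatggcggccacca
Ercc4: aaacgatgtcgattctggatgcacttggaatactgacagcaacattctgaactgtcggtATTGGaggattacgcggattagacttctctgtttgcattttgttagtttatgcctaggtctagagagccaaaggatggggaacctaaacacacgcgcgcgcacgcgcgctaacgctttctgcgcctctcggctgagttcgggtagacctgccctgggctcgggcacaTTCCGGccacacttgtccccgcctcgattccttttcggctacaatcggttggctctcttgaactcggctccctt
Lig3: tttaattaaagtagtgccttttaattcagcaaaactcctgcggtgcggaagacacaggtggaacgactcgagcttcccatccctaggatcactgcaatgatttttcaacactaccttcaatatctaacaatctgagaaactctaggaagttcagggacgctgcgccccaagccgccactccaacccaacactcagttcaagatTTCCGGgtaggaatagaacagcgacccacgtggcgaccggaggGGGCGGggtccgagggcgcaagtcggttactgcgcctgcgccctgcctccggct
Rbx1: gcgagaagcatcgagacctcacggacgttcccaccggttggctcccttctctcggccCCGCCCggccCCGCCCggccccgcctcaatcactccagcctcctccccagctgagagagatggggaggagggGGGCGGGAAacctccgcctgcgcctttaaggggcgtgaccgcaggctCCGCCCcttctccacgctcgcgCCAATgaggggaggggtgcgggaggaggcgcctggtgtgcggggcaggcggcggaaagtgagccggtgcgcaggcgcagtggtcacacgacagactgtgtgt

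Rad23b held 2 GC boxes and 1 CCAAT box, Ercc4 a CCAAT box and an ETS core, and Lig3 an ETS core and a GC box. Rbx1, the gene that was lower in dblGATA, held 4 GC boxes, a CCAAT box and an E2F core that overlaps 1 of the GC boxes. Among the 27 promoters, the GC box was in 74.1%, the CCAAT box in 51.9%, the ETS core in 44.4% and the E2F core in 18.5%, against 35.7%, 37.4%, 14.9% and 4.60% of all 32851 RefSeq promoters in the table. TGACGT, a core of CREB factor sites, was in 14.8% of the 27 and in 7.51% of all promoters. TATAAA was in 0 of the 27 and in 13.6% of all promoters. Median GC content was 57.3% in the 27 windows and 52.7% in all windows, so the shares of GC-rich words are not compared at equal base composition. These matches describe letters in the windows and are not shown to be bound sites.

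The libraries held 66339087 to 98195869 counts in dblGATA and 67108041 to 82755562 counts in WT. No member had fewer than 410 counts in any library, and levels are given as CPM, counts per 1e+06 counts after TMM scaling. Markers of the labelled tissue were present: the 9 basal epithelium genes summed to 6469 to 9773 CPM in dblGATA and 4768 to 6890 CPM in WT, and the 16 skeletal muscle genes to 20422 to 42009 CPM in dblGATA and 27272 to 51069 CPM in WT. Rn18s, a ribosomal RNA gene, took 0.587% to 2.17% of the counts in dblGATA and 0.599% to 16.9% in WT, where WT 4 held 10.1% and WT 6 held 16.9%. Gata1 had 1 to 9 counts in the dblGATA libraries, 106 in WT 3 and 3 to 10 in the other WT libraries, too few to check the genotype by itself. Of the eosinophil genes, Ccr3 had 2 to 29 counts in dblGATA and 22 to 74 in WT, and Siglecf had 4 to 17 in dblGATA and 2 to 31 in WT. The granule genes were high in WT 3 alone: Epx had 0 to 2 counts in dblGATA, 142 in WT 3 and 0 in the other WT libraries, and Prg2 had 3 to 20 in dblGATA, 744 in WT 3 and 2 to 15 in the other WT libraries. Alox15, which other cells also express, had 65 to 887 counts in dblGATA and 157 to 435 in WT. Xist and Ddx3y were both above 1 CPM in 5 dblGATA and 4 WT libraries. Ddx3y was at 0 CPM in WT 6 alone, where Xist was at 828 CPM.

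Of the 30 repair genes, 4 were higher and 1 was lower in dblGATA than in WT (edgeR quasi-likelihood test, adjusted p under 0.05 over 16599 genes). Rad23b, Ercc3, Ercc4 and Lig3 rose and Rbx1 fell, with levels from 12.7% lower to 17.8% higher than in WT. The background was of similar size: 13.5% of all genes tested passed in either direction, 7.1% higher and 6.39% lower in dblGATA. In the repair list 5 of 30 is 16.7%, close to that background. The log2 fold change of dblGATA over WT was positive for 23 members and negative for 7, with a median of 0.10. Over all genes tested it was positive for 8230 and negative for 8369, with a median of -0.00. At an unadjusted p under 0.05 there were 14 of the 30 genes, against 32.4% of all genes. Values after ± are SE for log2 fold changes and SD for levels. No test of the list as a whole was made. In whole tissue, a change in the number of cells that express a gene and a change in RNA per cell cannot be told apart.

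**Figure D1:**
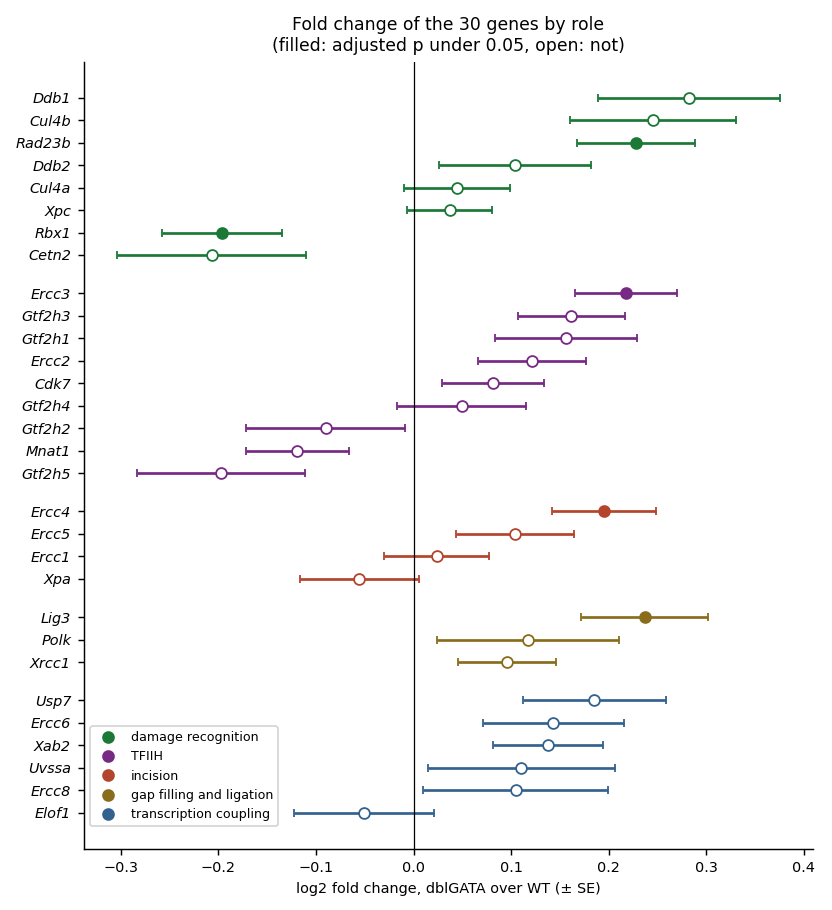
Log2 fold change of dblGATA over WT with its SE on the x axis for each of the 30 genes, grouped by role on the y axis; filled points have an edgeR adjusted p under 0.05. The 5 filled points are Rad23b, Rbx1, Ercc3, Ercc4 and Lig3, and all 30 values lie between -0.21 and 0.28.

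Per kilobase of transcript, the 3 most abundant genes were damage recognition genes. Ddb1, the adaptor that links DDB2 to the cullin ligase, was the most abundant at 64.1 ± 4.38 CPM per kb in dblGATA and 52.7 ± 8.11 in WT (SD, n = 7 and 6). Rad23b followed at 59.8 ± 4.60 in dblGATA and 51.0 ± 2.08 in WT, and Rbx1 at 41.6 ± 1.37 in dblGATA and 47.6 ± 4.70 in WT. In WT the difference between Ddb1 and Rad23b was smaller than the SD of either, and the values of Rbx1 and Rad23b, each mean with its SD, overlapped. At the low end were Ercc6 at 2.36 ± 0.166 CPM per kb in dblGATA and 2.13 ± 0.226 in WT, Polk at 2.70 ± 0.163 in dblGATA and 2.48 ± 0.414 in WT, and Uvssa at 3.04 ± 0.126 in dblGATA and 2.82 ± 0.518 in WT. Xpc, which senses the distorted helix, stood at 5.97 ± 0.220 CPM per kb in dblGATA and 5.82 ± 0.175 in WT, well under its partner Rad23b.

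**Figure D2:**
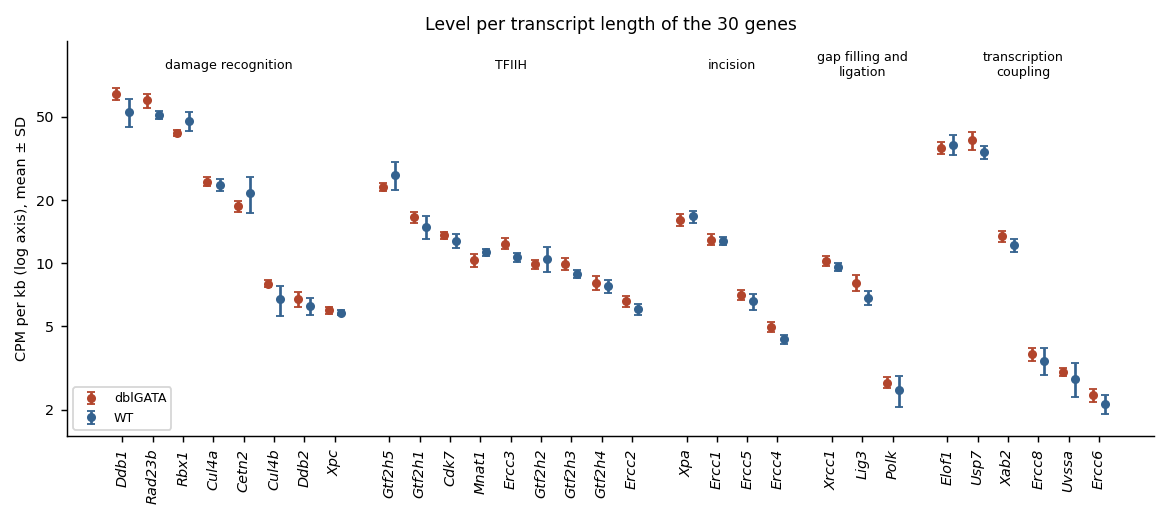
Mean CPM per kb of transcript (log axis) with SD for the 30 genes by role, 7 dblGATA libraries beside 6 WT libraries. Ddb1, Rad23b and Rbx1 are the most abundant and Ercc6, Polk and Uvssa the least in both groups.

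Among the 8 damage recognition genes 1 rose and 1 fell, and the median log2 fold change was 0.07. Rad23b, which stabilises XPC, ranged from 203 to 257 CPM in dblGATA (median 226) and from 183 to 203 CPM in WT (median 197). Of the dblGATA libraries 6 lay above the highest WT library, and dblGATA 6 lay just under it. The log2 fold change of Rad23b was 0.23 ± 0.06 (edgeR adjusted p = 0.0290).

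Rbx1, the RING subunit through which cullin ligases bind their ubiquitin-carrying enzyme, ranged from 66.4 to 72.8 CPM in dblGATA (median 69.2) and from 68.2 to 87.6 CPM in WT (median 82.4). The dblGATA libraries were tightly placed, with a coefficient of variation of 3.30% against 9.88% in WT, where WT 3 and WT 5 fell among the dblGATA values. Its log2 fold change was -0.20 ± 0.06 (edgeR adjusted p = 0.0489), close to the threshold. The protein serves many cullin ligases besides the one that acts in this pathway.

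Ddb1 had the most positive log2 fold change of the 30, at 0.28 ± 0.09, and did not pass (edgeR adjusted p = 0.0574). It ranged from 262 to 324 CPM in dblGATA (median 283) and from 181 to 273 CPM in WT (median 240). In 5 of 7 dblGATA libraries it was above every WT library, and WT 2, WT 6 and WT 4 were the lowest. Cul4b, an X-linked scaffold of the same ligase, had 25.2 to 28.2 CPM in dblGATA (median 26.4) and 19.4 to 27.4 CPM in WT (median 20.6). Its WT values fell apart, with WT 2 and WT 5 at the dblGATA level and the other 4 at most at 20.9 CPM. The log2 fold change of Cul4b was 0.25 ± 0.09 (edgeR adjusted p = 0.0665), while the related scaffold Cul4a had 0.04 ± 0.05 (edgeR adjusted p = 0.594).

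The sensors themselves differed little between the groups. Xpc averaged 21.7 ± 0.798 CPM in dblGATA and 21.1 ± 0.635 CPM in WT (SD, n = 7 and 6), a log2 fold change of 0.04 ± 0.04 (edgeR adjusted p = 0.580). Ddb2, which binds ultraviolet photoproducts, averaged 10.5 ± 0.857 CPM in dblGATA and 9.74 ± 0.934 CPM in WT, with a log2 fold change of 0.10 ± 0.08 (edgeR adjusted p = 0.374). Cetn2, the X-linked centrin of the XPC complex, had the most negative log2 fold change, -0.21 ± 0.10 (edgeR adjusted p = 0.155). Its range was 21.5 to 26.4 CPM in dblGATA (median 23.9) and 23.8 to 38.0 CPM in WT (median 26.0). The WT maximum came from WT 2 alone, and the log2 fold change was -0.10 ± 0.06 without that library (edgeR adjusted p = 0.234).

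TFIIH had 1 of 9 genes higher and none lower, and the median of their log2 fold changes was 0.08. Ercc3, which encodes XPB, the translocase that starts to open the helix, ranged from 30.6 to 35.6 CPM in dblGATA (median 34.3) and from 27.0 to 30.4 CPM in WT (median 29.3). All 7 dblGATA libraries lay above all 6 WT libraries, though dblGATA 6 and WT 3 were only 0.219 CPM apart. Its log2 fold change was 0.22 ± 0.05, with the smallest p of the 30 genes (edgeR adjusted p = 0.0237). Ercc3 was the only member whose groups did not overlap in this direction, where 1.99% of all genes did so; in the other direction there was no member and 0.705% of all genes.

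The other core subunits mostly had small positive values. Ercc2, the XPD helicase, had a log2 fold change of 0.12 ± 0.06, Gtf2h3 (p34) 0.16 ± 0.06 and Gtf2h1 (p62) 0.16 ± 0.07 (edgeR adjusted p = 0.143, 0.0623 and 0.152). Gtf2h4 (p52), which activates XPB, had 0.05 ± 0.07 and Gtf2h2 (p44), which activates XPD, had -0.09 ± 0.08 (edgeR adjusted p = 0.635 and 0.464). Gtf2h5, the small stabilising subunit known as TTDA, had -0.20 ± 0.09 (edgeR adjusted p = 0.130). Its WT libraries spread from 45.1 to 69.1 CPM around dblGATA libraries at 48.0 to 55.0 CPM, so every dblGATA library lay inside the WT range. In the kinase module, Cdk7 had 0.08 ± 0.05 and its assembly factor Mnat1 had -0.12 ± 0.05 (edgeR adjusted p = 0.297 and 0.136), and 4 of 7 dblGATA libraries were below the lowest WT library for Mnat1.

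Of the 4 incision genes 1 was higher, and the median log2 fold change was 0.06. Ercc4, which encodes XPF, the nuclease that cuts on the 5′ side of the damage, ranged from 15.9 to 19.0 CPM in dblGATA (median 17.3) and from 14.4 to 16.3 CPM in WT (median 15.1). The groups overlapped by 1 library each: dblGATA 6 was under WT 5, and the remaining dblGATA libraries were above every WT library. The log2 fold change of Ercc4 was 0.20 ± 0.05 (edgeR adjusted p = 0.0326).

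Ercc1, the obligate partner of XPF, averaged 17.8 ± 1.06 CPM in dblGATA and 17.5 ± 0.801 CPM in WT (SD, n = 7 and 6), a log2 fold change of 0.02 ± 0.05 (edgeR adjusted p = 0.790). The log2 ratio of Ercc4 to Ercc1 counts, which is not scaled for length, averaged -0.04 ± 0.09 in dblGATA and -0.21 ± 0.13 in WT (SD), and its groups overlapped. Ercc5, which encodes XPG, the nuclease of the 3′ side, averaged 27.7 ± 1.49 CPM in dblGATA and 25.8 ± 2.27 CPM in WT, with a log2 fold change of 0.10 ± 0.06 (edgeR adjusted p = 0.248). Xpa, the scaffold that verifies the lesion, averaged 15.4 ± 1.01 CPM in dblGATA and 16.0 ± 1.03 CPM in WT, with a log2 fold change of -0.06 ± 0.06 (edgeR adjusted p = 0.555). It was the only incision gene below 0. Xpa shares up to 77 exon bases with Ncbp1 on the opposite strand in GENCODE M21, and Ncbp1 was higher in dblGATA, at 0.27 ± 0.07 (edgeR adjusted p = 0.0257). Ddb1, Ddb2, Ercc1, Ercc2 and Xab2 also overlap exons of an opposite-strand gene there, so their values carry the same uncertainty if strand was not used.

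Gap filling and ligation had 1 of 3 genes higher. Lig3, the ligase that seals nicks together with XRCC1, ranged from 41.5 to 53.9 CPM in dblGATA (median 46.1) and from 35.1 to 42.9 CPM in WT (median 39.9). Only dblGATA 6 reached into the WT range, under WT 3 and WT 5. The log2 fold change of Lig3 was 0.24 ± 0.07 (edgeR adjusted p = 0.0326). In the authors' deposited table Lig3 had an adjusted p of 0.246, and the ratio of its raw to its normalized value, relative to the library's median ratio, differed by 29.6% in dblGATA 2 and by -11.1% in dblGATA 3. Lig3 also shares up to 1826 exon bases with Rffl on the opposite strand in GENCODE M21; whether the counting used strand is not given in the sources used here, and Rffl had a log2 fold change of 0.09 (edgeR adjusted p = 0.379). Xrcc1, the scaffold of that ligase, had 0.10 ± 0.05 and Polk, a polymerase that takes part in repair synthesis, 0.12 ± 0.09 (edgeR adjusted p = 0.201 and 0.400).

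**Figure D3:**
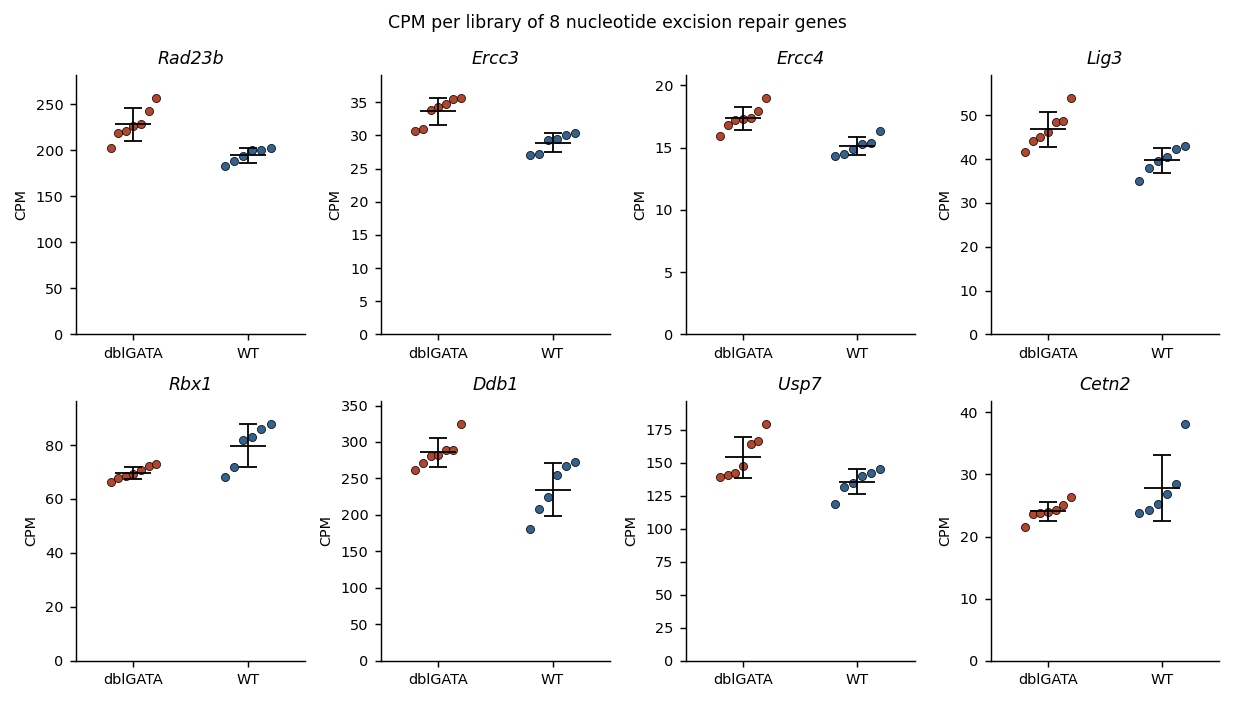
CPM of each library (points), with mean and SD (bars), for the 5 genes that passed and for Ddb1, Usp7 and Cetn2; dblGATA stands left of WT and each y axis starts at 0. Only Ercc3 separates the groups fully, and the highest Cetn2 point, 38.0 CPM, is WT 2.

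None of the 6 transcription coupling genes passed in edgeR, DESeq2 or limma-voom, and 2 had an unadjusted edgeR p under 0.05. Their median log2 fold change was 0.12 and 5 of the 6 values were positive. Usp7, a deubiquitinase that keeps CSB stable, came closest: it ranged from 139 to 179 CPM in dblGATA (median 147) and from 119 to 145 CPM in WT (median 137). In dblGATA 2, 3, 5 and 7 it was above every WT library, and the other 3 overlapped with WT. Its log2 fold change was 0.19 ± 0.07 (edgeR adjusted p = 0.0985).

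Ercc6, which encodes CSB, the ATPase that meets the stalled polymerase, averaged 19.9 ± 1.40 CPM in dblGATA and 18.0 ± 1.91 CPM in WT (SD, n = 7 and 6), a log2 fold change of 0.14 ± 0.07 (edgeR adjusted p = 0.186). Ercc8, which encodes CSA, averaged 7.80 ± 0.570 CPM in dblGATA and 7.25 ± 1.04 CPM in WT, with 0.10 ± 0.09 (edgeR adjusted p = 0.463). Uvssa, which brings USP7 and TFIIH to the complex, had 0.11 ± 0.10, and Xab2, an XPA-binding splicing factor, had 0.14 ± 0.06 (edgeR adjusted p = 0.444 and 0.109). Elof1, an elongation factor that helps to mark the stalled polymerase, was at -0.05 ± 0.07 (edgeR adjusted p = 0.654).

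Among the members, longer transcripts had the more positive values. Over the 30 genes, Spearman's rho between transcript length and log2 fold change was 0.68, against 0.17 over 15570 genes with a length. The points share the same libraries and are not independent. The 15570 genes were not matched to the members in abundance, so the 2 values of rho are not compared at equal noise. Of the 13 members of 3 kb or more, 13 had a positive log2 fold change, as did 1 of the 4 members under 1.5 kb. In all genes tested with a length, 57.9% of those of 3 kb or more and 33.1% of those under 1.5 kb were positive. The lower member Rbx1 is 1.68 kb long, and the higher members are 2.71 kb (Ercc3), 3.48 kb (Ercc4), 3.81 kb (Rad23b) and 5.80 kb (Lig3) long. The part of transcript length in these differences was not tested.

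**Figure D4:**
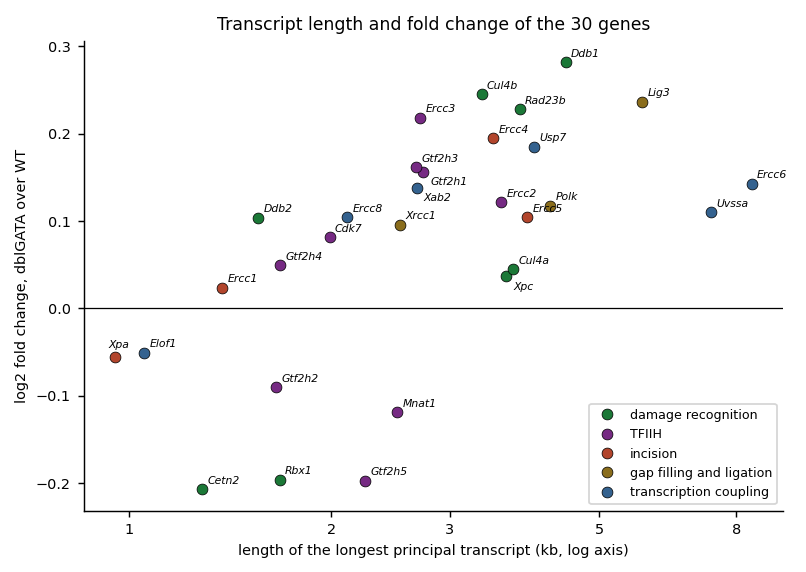
Length of the longest principal transcript in kb (x, log axis) against the log2 fold change of dblGATA over WT (y) for the 30 genes, coloured by role. The 13 members of 3 kb or more all lie above 0, and the 7 members below 0 are shorter.

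Ratios between partners differed in both directions, and the groups overlapped in each pair given here. The log2 ratio of Ddb1 to Rbx1 averaged 2.03 ± 0.12 in dblGATA and 1.55 ± 0.36 in WT (SD, n = 7 and 6), and that of Gtf2h5 to Ercc3 averaged 0.62 ± 0.11 in dblGATA and 1.02 ± 0.30 in WT. The WT spread of both ratios was more than the dblGATA spread. For Cul4b to Cul4a the ratio averaged -1.77 ± 0.11 in dblGATA and -1.99 ± 0.27 in WT, and for Rad23b to Xpc 3.39 ± 0.14 in dblGATA and 3.20 ± 0.06 in WT. For Mnat1 to Cdk7 it averaged -0.05 ± 0.14 in dblGATA and 0.15 ± 0.11 in WT, and for Ercc8 to Ercc6 -1.35 ± 0.12 in dblGATA and -1.31 ± 0.24 in WT. For Cul4b with Cul4a and for Mnat1 with Cdk7, the shorter partner, Cul4b or Cdk7, had the more positive log2 fold change. In the other pairs given here the longer partner had it. The part of transcript length in these ratios was not tested.

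Some libraries were the extreme of their group for many members, and the same counts over all genes were not made. In dblGATA, library 5 was the highest of its group for 13 of the 30 genes and library 6 the lowest for 16. In WT, library 2 was the highest of its group for 12 genes, among them Cetn2, Gtf2h1, Polk, Uvssa and Cul4b. It was the lowest for 4, among them Ddb1. Without WT 2, 8 members were higher and 1 lower, Cul4b, Gtf2h1, Gtf2h3 and Polk in addition to the first 5; in that fit 22.9% of all genes passed. The median coefficient of variation of the 30 genes was 6.05% in dblGATA and 7.31% in WT.

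Outside the 30, other genes of the pathway were counted from lists by role: 5 of 43 were higher and 1 lower. This is 14.0%, near the 13.5% of all genes tested. The median log2 fold change of the 43 was 0.05. Beside 7.1% of all genes tested, 4 of 18 genes that repair shares with DNA replication were higher (22.2%). These were Lig1, the replicative ligase, at 0.38 ± 0.10; Pole, a polymerase catalytic subunit, at 0.37 ± 0.11; and the clamp loader subunits Rfc5 at 0.37 ± 0.10 and Rfc1 at 0.24 ± 0.05 (edgeR adjusted p = 0.0272, 0.0478, 0.0290 and 0.0170). Rfc1 averaged 45.1 ± 1.89 CPM in dblGATA and 38.0 ± 2.11 CPM in WT (SD, n = 7 and 6), without overlap between the groups.

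Aqr, a helicase of the XAB2 complex, was the 1 higher gene of 9 further transcription coupling genes, at 0.36 ± 0.09 (edgeR adjusted p = 0.0276). None of 9 COP9 signalosome genes, whose complex switches off cullin ligases, passed in edgeR, DESeq2 or limma-voom, and 1 had an unadjusted edgeR p under 0.05.

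Most cell cycle and basal epithelium markers were higher in dblGATA. Of all genes tested, 7.1% were higher and 6.39% lower. Of 18 cell cycle markers 13 were higher and 0 lower in dblGATA, with sums of 578 to 764 CPM in dblGATA and 359 to 512 CPM in WT, and of 9 basal epithelium markers 7 were higher and 0 lower. Of 16 skeletal muscle markers 0 were higher and 6 lower. Of 12 squamous differentiation markers 1 was higher and 0 lower, with 11 positive log2 fold changes and 1 negative. None of 8 adipocyte markers passed in edgeR (3 at an unadjusted p under 0.05), and all 8 log2 fold changes were negative. The mean log2 CPM of the cell cycle list was 4.57 to 4.99 in dblGATA and 3.99 to 4.45 in WT, without overlap. Genotype and cell cycle content therefore cannot be told apart in these libraries. The same holds for basal content, whose score, the mean of its list, was 8.64 to 9.03 in dblGATA and 8.08 to 8.47 in WT. With that score as a covariate Rad23b had 0.09 ± 0.13, Ercc3 0.07 ± 0.11, Ercc4 0.12 ± 0.12, Lig3 -0.02 ± 0.12 and Rbx1 -0.10 ± 0.13 on the log2 scale, and none passed at an adjusted or unadjusted p under 0.05. The part of cell cycle, basal and muscle content in the repair genes' values was not tested. Of 14 p53 target genes 2 were higher and 1 lower.

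None of the 5 calls held in every fit that left out 1 library. Without WT 4 and WT 6, the libraries with the most Rn18s, no member passed (edgeR; 5 at an unadjusted p under 0.05), and neither did any of all genes tested, of which 3542 had an unadjusted p under 0.05. The log2 fold changes were then 0.21 ± 0.07 for Rad23b, 0.19 ± 0.06 for Ercc3, 0.16 ± 0.06 for Ercc4, 0.17 ± 0.07 for Lig3 and -0.16 ± 0.07 for Rbx1, each in the same direction as with all libraries. No member passed in edgeR without WT 4, without WT 6, or without dblGATA 3, 5 or 7 (9, 8, 9, 10 and 11 members had an unadjusted p under 0.05). Of all genes 2.37%, 2.13%, 4.56%, 3.23% and 3.3% passed in those fits, so calls were lost across the table. Without WT 1 Ercc3 was the 1 member that passed, beside 7.21% of all genes. With Xist as a covariate 1 member passed, Ercc3, beside 9.45% of all genes. With the replicate number as a block 1 passed, Lig3, beside 5.32%. The block fit also left out dblGATA 7, which has no WT library of its number, so it differs from the main fit in 2 ways. With the Rn18s share as a covariate 0 members and 0 of all genes passed, and the log2 fold changes were 0.20 ± 0.07 for Rad23b, 0.19 ± 0.06 for Ercc3, 0.17 ± 0.06 for Ercc4, 0.17 ± 0.07 for Lig3 and -0.13 ± 0.06 for Rbx1. With the score of the muscle list in its place they were 0.20 ± 0.08, 0.19 ± 0.07, 0.14 ± 0.07, 0.18 ± 0.09 and -0.21 ± 0.08 in the same order of genes, again with 0 calls. At an unadjusted edgeR p under 0.05 there were 5 members with the Rn18s share and 6 with the muscle score. The part of Rn18s in the result was not tested.

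The authors' deposited table called 6 members higher and 0 lower at an adjusted p under 0.05, against 9.57% of its genes higher and 8.63% lower. These were Ercc3, Rad23b, Cul4b, Ercc4, Gtf2h3 and Gtf2h1. Run here on the rounded counts, DESeq2 called 7 members higher and 1 lower, where it called 22.3% of all genes. On the authors' normalized signal limma called Rad23b, Cul4b and Ercc3, where it called 11% of all genes. Rbx1 had an adjusted p of 0.155 in the authors' deposited table. Their pathway table, also deposited, ranked an enhanced nucleotide excision repair set at 113 of 649 pathways with a -log10 p of 3.69 and a z score of 1.213, and 5 of its 24 listed genes are among the 30. A narrower set of that name ranked at 221 with a -log10 p of 2.07, and 5 of its 10 listed genes are among the 30.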

How the data were processed

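RNA of whole esophagus was extracted from preserved tissue with a mean RNA integrity number given in the labels, and libraries were stranded and poly-A selected, per the labels' protocols. The authors' raw table, per the file headers, held whole numbers per gene and library, read here as estimated counts rounded before deposit, because raw and normalized values of a library are not in a fixed ratio over genes. The deposited normalized signal served for an alternative on log2(value + 1), and the authors' log2 fold changes, scores, fold ratios and p-values, with -log10 p-values of a pathway table, were described only. The submitters' processing notes name DESeq2 1.34.0. Which aligner, counter and genome build were used is not given in the sources used here.

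Genes were kept by filterByExpr (minimum count 10, minimum total 15), which left 16599. Counts were scaled by TMM and tested with edgeR 4.0.16 (robust quasi-likelihood, R 4.3.3) on all 13 libraries, genotype only, with Benjamini-Hochberg adjustment and a threshold of 0.05. The fit was run on simulated data to check the code, which does not bear on the stability of the calls. SE was taken as the log2 fold change over the square root of F. Transcript lengths came from GENCODE M21. Alternatives used DESeq2 1.42.0 and limma 3.58.1, other scalings and filters, covariates, a replicate block and left-out libraries.

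The 30 genes and all lists were chosen with earlier results of these data known. Library values are printed for members that passed, for the smallest p of a role group with none, and for the extreme log2 fold changes; defining factors are described whatever their values, and Cul4b and Gtf2h5 were added after their values were seen. The labels do not say that libraries are separate animals, so p-values measure the spread between libraries, which may be technical. Libraries of a group all differed by more than sampling noise (lowest chi-square per degree of freedom 66.3). Proteins were not used here, the promoter of Ercc3 is not reported, and 1 further gene is not reported here.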

Additional observations from a re-analysis of the deposited data

Results flagged for a closer look

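Among 60 groups of libraries examined (30 genes in each genotype), 2 held a library far from the others. Chance gives about 1 in 20 groups, so 2 of 60 is no more than chance gives. Xpa was at 13.3 CPM in dblGATA 4, below the other dblGATA libraries at 15.3 to 16.5 CPM. Cetn2 was at 38.0 CPM in WT 2, above the other WT libraries at 23.8 to 28.4 CPM.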

How the results depend on the processing

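DESeq2 called 7 members higher and 1 lower, 6 other pathway genes higher and 2 lower, and 1771 of all genes lower. Lower members were 0 with limma-voom, with no filter and on the authors' signal. Lower pathway genes were 2 with upper-quartile scaling, 2 with a minimum of 1 CPM and 0 with no filter. Upper-quartile scaling split all genes into 830 higher and 1299 lower. With Rn18s, the skeletal muscle score or the basal score as a covariate, and without WT 4 and WT 6, counts were 0 for members, other pathway genes and all genes in both directions; all genes at an unadjusted p under 0.05 were then 3924, 1480, 325 and 3542. Among members these were 5, 6, 0 and 5. With Xist as a covariate 1 member was higher (Ercc3) and 0 lower, 0 other pathway genes were lower and 770 of all genes were higher. With the replicate number as a block, a fit without dblGATA 7, 1 member was higher (Lig3, edgeR adjusted p = 0.0415) and 0 lower. In that fit 2 other pathway genes were higher and 0 lower, and all genes were 495 higher and 385 lower. The numbers do not pair the samples: same-numbered libraries correlated at -0.12 to 0.09.

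Leaving out 1 library gave 0 to 8 members higher and 0 to 2 lower, 1 to 9 other pathway genes higher and 0 to 1 lower, and 222 to 1928 of all genes higher and 135 to 1900 lower. The median log2 fold change of the members was 0.09 to 0.12 there and -0.015 with the basal score.

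Of 780 single-gene values under alternatives, 24 changed sign, and the cause was not tested. With the basal score these were Ddb2 -0.0778, Cul4a -0.00661, Ercc2 -0.00517, Gtf2h1 -0.0962, Gtf2h2 0.119, Gtf2h3 -0.0882, Mnat1 0.101, Xpa 0.121, Ercc1 -0.0654, Ercc5 -0.095, Polk -0.0599, Lig3 -0.0235, Xrcc1 -0.0849, Ercc6 -0.129, Ercc8 -0.052 and Xab2 -0.0696 on the log2 scale. With Rn18s they were Cul4a -0.00231, Gtf2h2 0.00815 and Elof1 0.0328, with the muscle score Cdk7 -0.00679, Polk -0.0473 and Ercc8 -0.0333, with upper-quartile scaling Ercc1 -0.0111 and on the authors' signal Gtf2h4 -0.0591. Members had at least 410 counts per library.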
